A study of Mus musculus with 18 samples.

Results

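The genes described here are those whose hypothalamic level was higher at ‘peak’ than at ‘trough’ blood pressure (BP) in both the hypertensive BPH/2J and the normotensive BPN/3J strain. They were chosen by these array values themselves. A probeset with 1 gene symbol was taken if its lowest ‘peak’ mouse lay above its highest ‘trough’ mouse in each strain, and the 150 with the largest mean of both strains' differences were kept. Of 21640 probesets with 1 symbol, 1260 met the condition of no overlap, which is 5.82%. Of these, 199 were left out by symbol (4 named symbols and 16 symbol beginnings, mostly ribosomal, respiratory chain, proteasome, zinc finger, helicase, small nucleolar RNA and ion channel families), and 150 of the remaining 1061 were kept. They stand for 141 genes, with 146 probesets of protein-coding genes and 0 of microRNAs. In the opposite direction, 682 probesets were lower at ‘peak’ BP in both strains without overlap.

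Gene expression had been measured in hypothalamic RNA of 18 male mice, each on its own Affymetrix Mouse Gene 1.0 ST array. There were 6 BPH/2J mice at ‘peak’ BP (active period), 3 BPH/2J mice at ‘trough’ BP (inactive period), 6 BPN/3J mice at ‘peak’ BP and 3 BPN/3J mice at ‘trough’ BP. BPH/2J and BPN/3J are inbred strains selected for high and for normal BP, and the labels name no engineered allele and no agent. The study's methods describe dissection of the paraventricular and dorsomedial nuclei, where the labels say hypothalamus, and single mice without pooling. The ‘peak’ mice were 26 weeks old and the ‘trough’ mice 18 weeks (19 by the description of the series), so that time of collection and age cannot be told apart in any comparison of ‘peak’ with ‘trough’ BP. The strain of the BPN/3J ‘trough’ mice was taken from their titles, since another label calls them BPH/2J. Values are log2 signals after robust multi-array averaging (RMA), and a difference of 1 on this scale is a doubling. In bulk tissue a lower share of a cell type and less RNA per cell cannot be told apart.

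The genes have roles in RNA processing, in protein folding, transport and breakdown, in mitochondria and in neuronal signalling. Among the better known are *Rbm3* and *Cirbp*, whose RNA-binding proteins accumulate when body or culture temperature falls. Their mRNAs vary over the day in mice, and a link to body temperature was not tested here. *Ddit4* is induced by glucocorticoids and by cellular stress and restrains the growth kinase mTOR. The ubiquitin system, several members of which are in the set, tags proteins for breakdown.

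Averaged over the 150 probesets, the level was 8.36 ± 0.13 in BPH/2J ‘peak’ mice (SD, n = 6) and 7.66 ± 0.09 in BPH/2J ‘trough’ mice (n = 3), 8.36 ± 0.14 in BPN/3J ‘peak’ mice (n = 6) and 7.46 ± 0.15 in BPN/3J ‘trough’ mice (n = 3). Within BPH/2J the ‘peak’ mice ran from 8.23 to 8.54, against 7.56, 7.70 and 7.72 in the ‘trough’ mice. Within BPN/3J the ‘peak’ mice ran from 8.20 to 8.57, against 7.33, 7.41 and 7.63 in the ‘trough’ mice. BPN/3J ‘trough’ mouse 4 was the highest of its group, and the groups lay apart in both strains, as the rule requires. The mean over all probesets with 1 symbol stayed between 6.95 and 7.02 in all 18 arrays. The median over each whole array ran from 6.17 to 6.32 in BPH/2J ‘peak’ mice, against 6.27 to 6.33 in the ‘trough’ mice, and up to 6.37 in BPN/3J ‘peak’ mice, against 6.29 to 6.42 in the ‘trough’ mice. With each array centred on its median, 142 of the 150 probesets still met the rule.

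**Figure D1:**
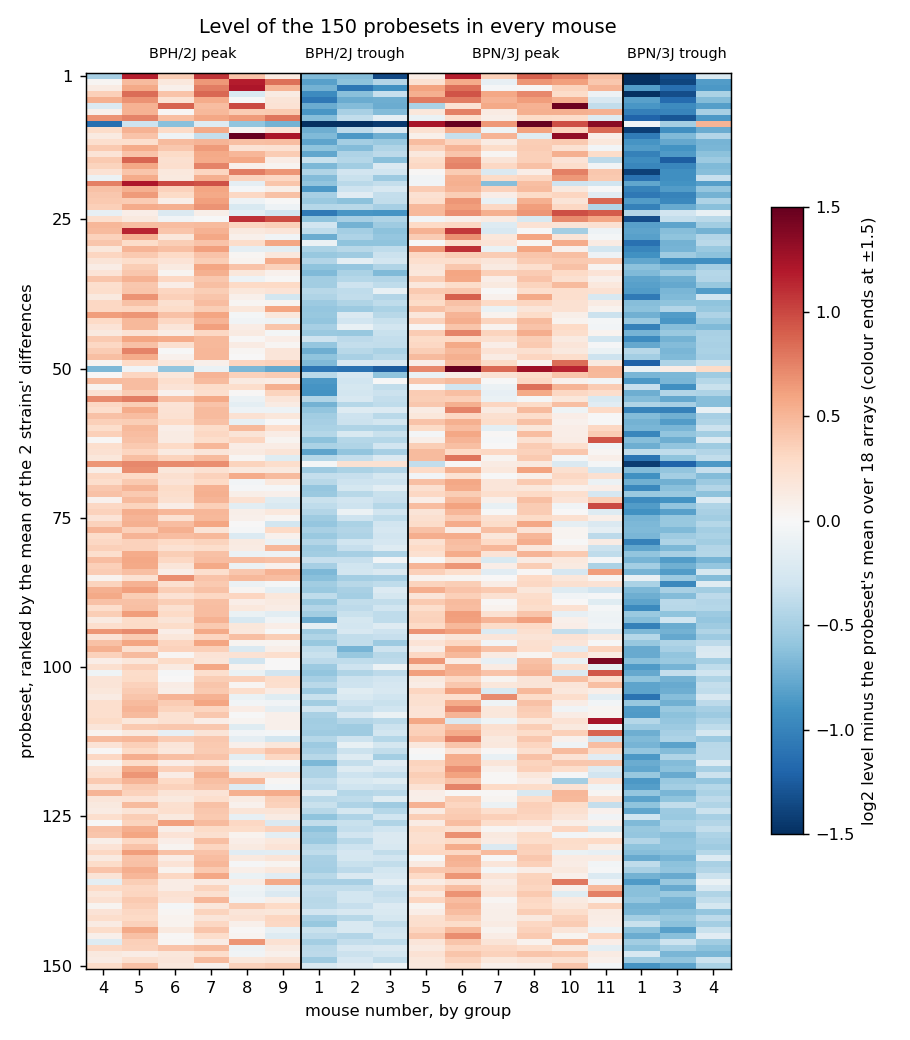
Level of each of the 150 probesets (rows, ranked by the mean of both strains' differences) in each of the 18 mice (columns, by group), as the log2 level minus the probeset's mean, with red above and blue below it. All ‘peak’ columns are mostly red and all ‘trough’ columns mostly blue, and BPN/3J ‘trough’ mice 1 and 3 are the darkest blue.

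The level at ‘peak’ BP exceeded that at ‘trough’ BP by a median of 0.68 in BPH/2J mice and of 0.85 in BPN/3J mice, against -0.02 and -0.04 over all probesets with 1 symbol. Differences ran from 0.42 to 1.44 in BPH/2J and from 0.53 to 1.86 in BPN/3J. At least a doubling was reached by 10 probesets in BPH/2J, by 27 in BPN/3J and by 8 in both. The gap between the lowest ‘peak’ and the highest ‘trough’ mouse was at least 0.20 in both strains for 76 probesets and under 0.10 in either strain for 33. At the border, *Thoc7*, *Asnsd1* and *Hddc2* were the last taken, each with a mean difference of 0.65, and *Washc3*, *Arxes2* and *Unc50* the first left out, also with 0.65. All of these values describe the choice and carry no test.

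The largest mean difference belonged to *Tsen15*, a subunit of the endonuclease that splices tRNA precursors. Its level was 5.56, 6.46 and 7.23 (lowest, median and highest) in BPH/2J ‘peak’ mice, against 5.4, 5.41 and 4.71 in the 3 ‘trough’ mice. The BPN/3J mice had 6.18, 6.66 and 7.23 at ‘peak’ BP, against 3.91, 4.73 and 5.83 at ‘trough’ BP. The groups lay 0.14 apart in BPH/2J and 0.35 in BPN/3J, a narrow gap for differences of 1.33 and 1.86. *Ppia*, which encodes the abundant prolyl isomerase cyclophilin A, followed with 1.18 in BPH/2J and 1.65 in BPN/3J. *Ptchd1*, an X-linked gene for a membrane protein of the patched family, had 1.04 and 1.64. *Ctxn2*, the gene of a small neuronal membrane protein of the cortexin family, had 1.21 and 1.37.

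*Tex30* was among the most evenly separated. It measured 7.68, 7.88 and 7.94 in BPH/2J ‘peak’ mice, against 6.64, 6.92 and 6.87 in the ‘trough’ mice. In BPN/3J the ‘peak’ mice had 7.55, 7.78 and 7.89, against 6.55, 6.66 and 6.74 in the ‘trough’ mice. All ‘peak’ mice thus stood at least 0.76 above the ‘trough’ mice of their strain. *Trdn*, the gene of triadin, a protein of the calcium release apparatus of muscle, entered with 3 probesets and differences from 0.96 to 1.44. These are dim, with mean levels of 3.08, 3.28 and 3.92, against a median of 7.01 for probesets with 1 symbol. *Trdn* has 19 probesets on the array, of which 17, the 3 chosen ones included, were positive in both strains. The brightest, with a mean level of 7.25, had -0.06 in BPH/2J and -0.40 in BPN/3J.

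Many of these probesets may read more than 1 locus. Probeset numbers on this array follow the genome, and 97.2% of probesets with 1 symbol and a RefSeq gene lie on the chromosome that is commonest among the 10 neighbours on each side. Of 148 members placed by their gene in RefSeq, 23 (15.5%) were numbered among probesets of another chromosome, against 9.71% of all that met the rule and 2.83% of all with 1 symbol. *Tsen15* on chromosome 1 and *Ppia* on chromosome 11 were both numbered among probesets of chromosome 6. *Scoc*, *Kpna2*, *Armcx5*, *Higd1a*, 1 of the probesets of each of *Rbm3*, *Gemin6* and *Tctex1d2*, and both of *Cbx3* were among the remaining ones. A processed copy of a gene elsewhere in the genome would give such a number, so the source of the signal is uncertain for these probesets.

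The values at other probesets of the same genes are given as a description. The rule was applied to these probesets too, and they are the ones that did not meet it or ranked below the 150, so that smaller differences were largely fixed by the choice. Another probeset was present for 26 of the 141 genes, 55 probesets in all, and 10 of the 55 met the rule too. Their median differences were 0.24 in BPH/2J and 0.31 in BPN/3J. The brightest of them was brighter than the member for 17 genes, positive in both strains for 18 genes and negative in either for 8. *Ppia* at its brightest probeset, with a mean level of 12.86, differed by 0.24 in BPH/2J and 0.20 in BPN/3J. *Tsen15* at its own position on chromosome 1 had 0.40 and 0.77 and met the rule as well. By contrast, *Scoc*, which encodes a small coiled-coil protein of the Golgi, had -0.15 and -0.42 at its other probeset, and *Kpna2* had 0.10 and -0.13. For *Ptchd1* the other probeset gave 0.02 and 0.07. At the brightest other probeset the mean of both strains' differences was below that of the chosen probeset for all 26 genes, the chosen one having been picked for a large difference.

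**Figure D2:**
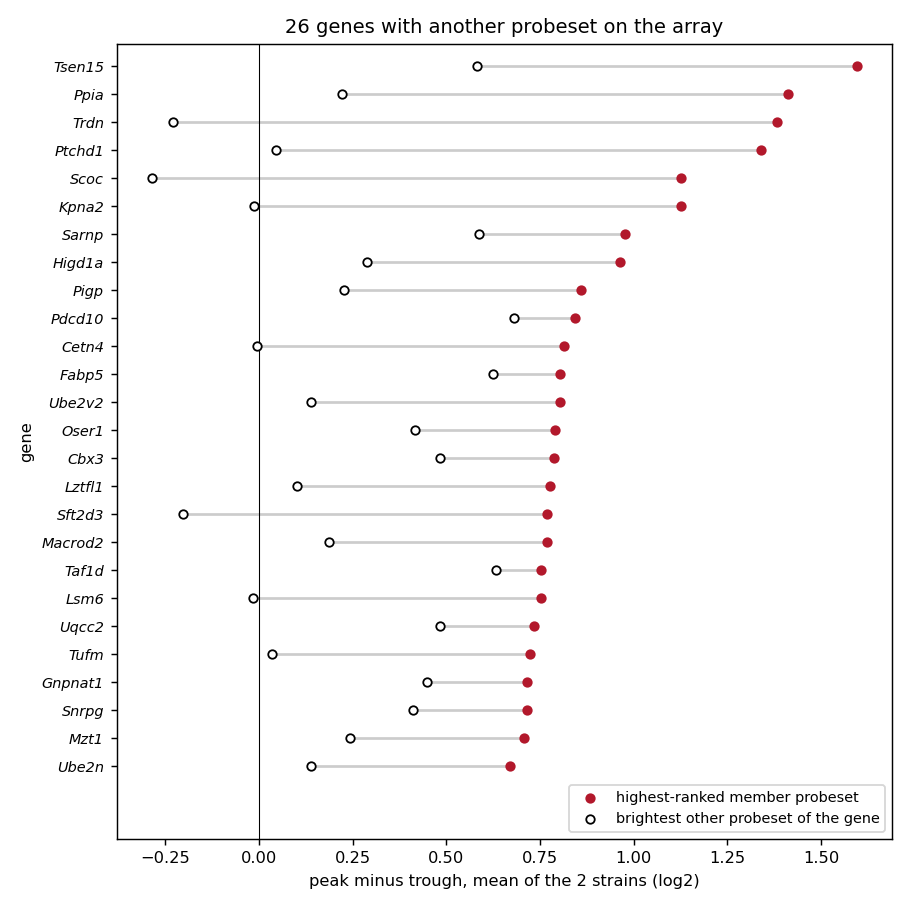
Difference between ‘peak’ and ‘trough’ BP (log2, mean of both strains, horizontal axis) for 26 genes that have another probeset on the array, at the highest-ranked chosen probeset (red) and at the brightest other probeset of the gene (open). The chosen probeset lies to the right for all 26 genes, and 18 of the open points are positive in both strains.

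Factors of RNA processing and RNA binding formed a large group, with 18 genes at 20 probesets. This grouping, like the functional groups named after it, was made after the values were seen. Its median differences were 0.70 in BPH/2J and 0.87 in BPN/3J. *Snrpe*, a core protein of the spliceosomal small nuclear ribonucleoproteins, measured 8.61, 8.76 and 9.0 in BPH/2J ‘peak’ mice, against 7.84, 8.03 and 8.02 in the ‘trough’ mice. In BPN/3J it measured 9.39, 9.58 and 9.87 at ‘peak’ BP, against 8.46, 8.61 and 8.79 at ‘trough’ BP. No BPH/2J mouse reached the lowest BPN/3J mouse of the same time, while BPH/2J ‘peak’ and BPN/3J ‘trough’ mice overlapped. *Sf3b6*, a subunit of the complex that recognizes the branch point, had 0.81 in BPH/2J and 1.21 in BPN/3J. *Sarnp*, a factor of mRNA export, had 0.81 and 1.15.

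*Gemin6* belongs to the complex that assembles the small nuclear ribonucleoproteins, and 2 of its probesets were chosen. The probeset at the gene's own position measured 7.14, 7.29 and 7.57 in BPH/2J ‘peak’ mice, against 6.4, 6.43 and 6.50 in the ‘trough’ mice. The BPN/3J mice had 6.88, 7.18 and 7.41 at ‘peak’ BP, against 6.36, 6.53 and 6.41 at ‘trough’ BP. Its differences were 0.87 and 0.74, and those of the probeset numbered on chromosome 6 were 0.73 and 0.79. *Clk1*, a kinase of the splicing regulators of the SR family, had 0.47 in BPH/2J and 0.96 in BPN/3J. *Thoc7* (mRNA export), *Exosc9* (RNA exosome), *Lsm6* (mRNA decay and U6 small nuclear RNA) and *Ppil3* (spliceosome) had between 0.45 and 0.66 in BPH/2J and between 0.77 and 0.85 in BPN/3J. Of the 2 other probesets of *Lsm6*, the brightest had 0.11 and -0.14, and the other had 0.38 and 0.45 and met the rule.

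The wider list of splicing factors is given as a description. Smaller differences than in these members were fixed by the rule, which kept the largest ones. Of 50 measured genes, each at its brightest probeset, 7 were higher and 1 lower at ‘peak’ BP in BPH/2J mice by limma at an adjusted p under 0.05, where 4.25% and 4.39% of all probesets were higher and lower. In BPN/3J mice 19 were higher and 1 lower, where the shares of all probesets were 12.9% and 12.4%. The median differences were 0.13 and 0.24, and 9 of the 50 met the rule of no overlap, against 5.82% of all probesets with 1 symbol. Members among the 50 were chosen by the same contrasts. The SR protein gene *Srsf3* rose by 0.51 in BPH/2J (adjusted p = 0.00897, limma) and 0.44 in BPN/3J (adjusted p = 0.0106, limma), and *Prpf8*, a core spliceosome component, fell by 0.39 in BPH/2J (adjusted p = 0.0202, limma). *Snrpg*, chosen at a probeset numbered on another chromosome (0.51 and 0.93), had 0.46 and 0.37 at its brightest probeset and did not pass there in either strain.

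Cold-inducible RNA-binding protein genes were among the brightest of the set. *Rbm3* measured 11.04, 11.19 and 11.22 in BPH/2J ‘peak’ mice, against 10.44, 10.01 and 10.19 in the ‘trough’ mice. In BPN/3J it measured 10.53, 10.95 and 11.03 at ‘peak’ BP, against 9.91, 9.93 and 10.20 at ‘trough’ BP. Its second chosen probeset, numbered on chromosome 7, gave differences of 0.82 and 0.94, close to the 0.94 and 0.89 of the first. *Cirbp* measured 10.25, 10.49 and 10.62 in BPH/2J ‘peak’ mice, against 9.87, 9.63 and 9.65 in the ‘trough’ mice. Among BPN/3J mice it measured 9.82, 10.09 and 10.56 at ‘peak’ BP, against 9.48, 9.38 and 9.58 at ‘trough’ BP. Both genes were thus clear of overlap, with differences of 0.73 and 0.65 for *Cirbp*. The list held 4 genes, and of the other members *Srsf5*, a splicing regulator, rose in BPN/3J mice (0.43, adjusted p = 0.0136, limma) and had 0.07 in BPH/2J mice, with no probeset of the array called for a difference between the strains' changes.

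The stress regulator *Ddit4* measured 8.23, 8.58 and 8.78 in BPH/2J ‘peak’ mice, against 7.76, 7.81 and 8.0 in the ‘trough’ mice. In BPN/3J it measured 8.11, 8.40 and 8.70 at ‘peak’ BP, against 7.59, 7.58 and 7.74 at ‘trough’ BP. It was the only one of the 141 genes in the list of glucocorticoid-induced genes, of which 16 were measured. In BPH/2J mice 3 of the 16 were higher at ‘peak’ BP, *Ddit4*, the kinase gene *Sgk1* (0.51, adjusted p = 0.0403, limma) and the receptor feedback inhibitor *Errfi1* (0.35, adjusted p = 0.0468, limma). The share of all probesets higher in BPH/2J was 4.25%. In BPN/3J mice, where 12.9% of all probesets were higher and 12.4% lower, 2 of the 16 were higher, *Ddit4* and *Errfi1* (0.44, adjusted p = 0.00818, limma), and the lipid droplet gene *Plin4* was lower by -0.55 (adjusted p = 0.0205, limma). *Ddit4* itself was chosen by these contrasts, and the BPN/3J count is near the share over all probesets. The rule of no overlap was met by 4 of the 16, *Ddit4* included, against 5.82% of all probesets with 1 symbol. *Ifit3b*, an interferon-induced gene, stood on its own with 1.15 in BPH/2J and 0.78 in BPN/3J.

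The ubiquitin system and its regulator, the COP9 signalosome, gave 9 genes, with median differences of 0.65 and 0.85. *Cops5*, the catalytic subunit that removes the ubiquitin-like protein NEDD8 from cullins, measured 9.30, 9.48 and 9.72 in BPH/2J ‘peak’ mice, against 8.48, 8.43 and 8.63 in the ‘trough’ mice. Among BPN/3J mice it measured 9.04, 9.40 and 9.60 at ‘peak’ BP, against 8.25, 8.19 and 8.40 at ‘trough’ BP. Gaps of 0.67 in BPH/2J and 0.65 in BPN/3J were wide beside the spread within groups. *Cops2*, another subunit, had 0.66 and 0.80. *Trim13*, a ubiquitin ligase of the endoplasmic reticulum, had 0.75 and 1.12. The conjugating enzymes or cofactors *Ube2n*, *Ube2v2* and *Ube2w* had between 0.56 and 0.65 in BPH/2J and between 0.75 and 0.95 in BPN/3J. The probesets of *Ube2n* and *Ube2v2* were numbered on other chromosomes. Their brighter other probesets had 0.20 and 0.08 for *Ube2n* and 0.05 and 0.23 for *Ube2v2*, and did not meet the rule.

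Proteins of the secretory pathway and of glycosylation made up 11 genes. *Srp14*, a subunit of the particle that brings nascent secretory proteins to the endoplasmic reticulum, measured 9.93, 10.07 and 10.29 in BPH/2J ‘peak’ mice, against 9.15, 9.48 and 9.29 in the ‘trough’ mice. Its levels in BPN/3J mice were 9.48, 9.91 and 10.02 at ‘peak’ BP, against 8.57, 8.65 and 8.94 at ‘trough’ BP. *Bet1* and *Trappc4*, which act in vesicle transport from the endoplasmic reticulum to the Golgi, had 0.64 and 0.82 in BPH/2J and 0.97 and 0.71 in BPN/3J. *Alg14* and *Pigp*, enzymes of glycan and anchor synthesis, had 0.69 and 0.87 in BPH/2J and 0.82 and 0.85 in BPN/3J. The *Pigp* probeset was numbered on another chromosome, and its other probeset had 0.22 and 0.23 and did not meet the rule. Protein folding was represented by 5 genes, *Ppia* among them.

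Mitochondrial and metabolic genes numbered 23, the largest of the named groups, although respiratory chain symbols were left out by the rule. Their median differences were 0.69 in BPH/2J and 0.78 in BPN/3J. *Higd1a*, a mitochondrial protein induced by hypoxia, had 0.80 and 1.12 at a probeset numbered on another chromosome. *Uqcc2* and *Uqcc3*, assembly factors of complex III, had 0.73 and 0.75 in BPH/2J and 0.74 and 0.80 in BPN/3J. *Hadhb*, the beta subunit of the trifunctional protein of fatty acid oxidation, had 0.56 and 0.75. Not counted among the 23, *Ciao2a*, an assembly factor for cytosolic iron-sulfur proteins, had 0.94 and 1.12.

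Neuronal and secreted signalling genes numbered 14. *Calb1*, the calcium buffer calbindin, measured 10.61, 10.79 and 11 in BPH/2J ‘peak’ mice, against 10.04, 10.06 and 10.05 in the ‘trough’ mice. Its levels in BPN/3J mice were 10.37, 10.74 and 10.97 at ‘peak’ BP, against 9.82, 9.83 and 10.19 at ‘trough’ BP. The differences of 0.78 and 0.76 were nearly equal between the strains. *Crhbp*, which encodes the binding protein of corticotropin-releasing hormone, was the closest to overlap, with gaps of 0.01 in BPH/2J and 0.05 in BPN/3J and differences of 0.58 and 0.76. *Resp18*, a protein of secretory granules, had 0.84 and 0.75, *Glra2*, a glycine receptor subunit, had 0.72 and 0.73, and *Rxfp1*, the relaxin receptor, had 0.74 in either strain.

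Of 13 genes of transcription, chromatin and the cell cycle, *H4c4*, 1 of the genes for histone H4, had 0.92 and 0.90, and its probeset can share signal with the near-identical copies of that family. *Cbx3*, heterochromatin protein 1 gamma, entered with 2 probesets, both numbered on other chromosomes, at 0.71 and 0.69 in BPH/2J and 0.87 and 0.72 in BPN/3J. At its own position on chromosome 6 it had 0.49 and 0.48 and met the rule. *Rrs1*, a factor of ribosome assembly, had 0.56 and 1.18. Outside these 13 genes, *Tbc1d7*, a subunit of the tuberous sclerosis complex that inhibits mTOR, had 0.77 and 1.23. *Kpna2*, an importin that carries proteins into the nucleus and was grouped under nuclear transport, had 1.03 and 1.22 at 1 probeset. It had 0.69 and 0.80 at the other chosen probeset.

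**Figure D3:**
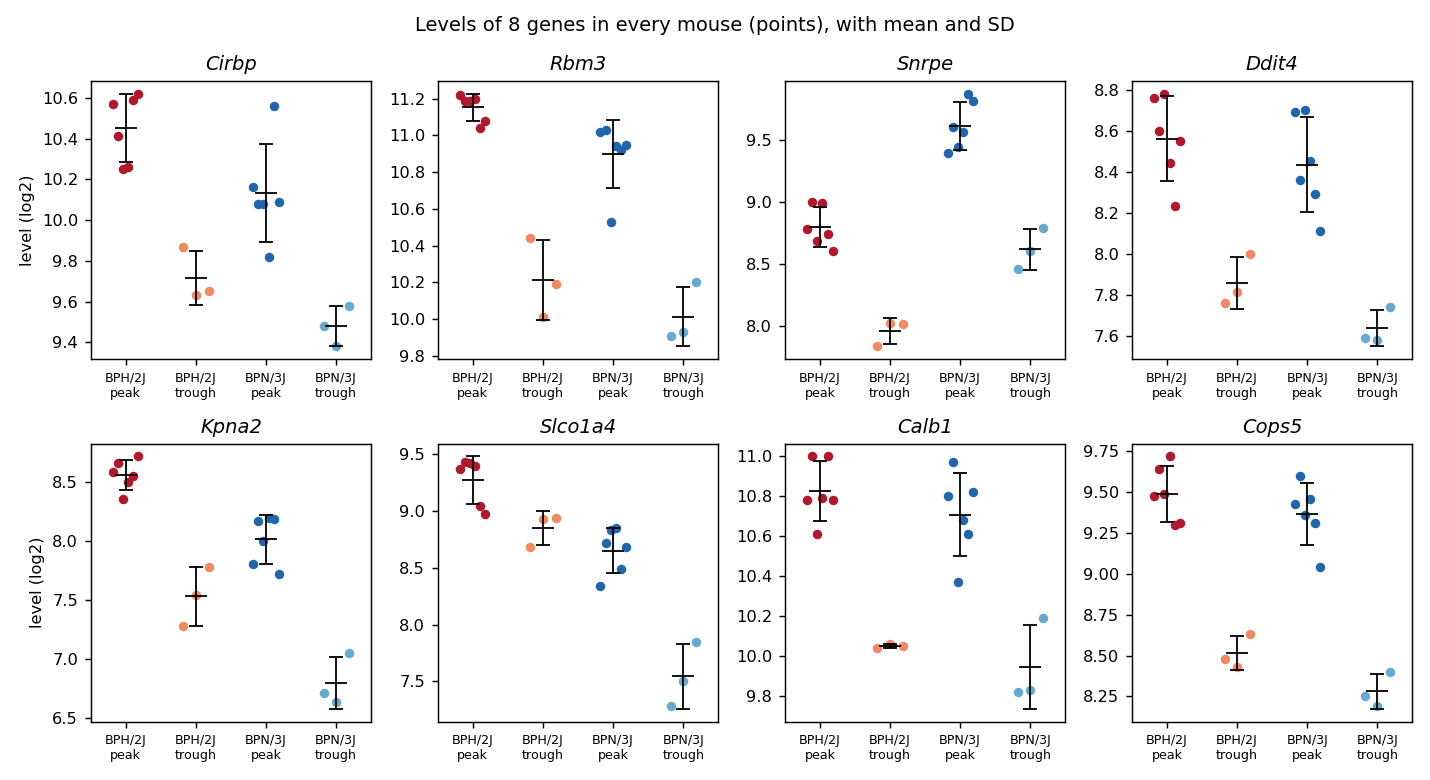
Log2 level of 8 of the genes in every mouse (points), with the mean and SD of each group (bars). *Cirbp*, *Rbm3*, *Ddit4*, *Calb1* and *Cops5* passed no test between the strains, *Snrpe* is lower and *Kpna2* and *Slco1a4* are higher in BPH/2J than in BPN/3J mice.

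The median of the mean levels was 8.12 for the members and 7.01 for all probesets with 1 symbol. Probesets were ordered by mean level in 5 equal bins of 4040. From the lowest level to the highest, the share that met the rule, left-out symbols included, was 0.52%, 1.24%, 4.88%, 9.16% and 14.9%. These bins held 4, 15, 35, 46 and 46 members. By gene span the shares were 5.25%, 8.24%, 8.66%, 5.54% and 3.00%, from the bin of the shortest spans to that of the longest. These bins held 28, 48, 36, 19 and 15 members. The median span was 13551 bp for the members and 18760 bp for all, while the lower quartile was 6408 bp for the members and 6167 bp for all. On chromosome X lay 16 of 139 member genes with a place (11.5%), against 6.26% of genes that met the rule and 3.72% of all. Among them were *Rbm3* and *Ptchd1*, and *Armcx5*, *Bhlhb9*, *Arxes1*, *Bex1* and *Tceal1* lay near each other, between positions 135742692 and 136709873. The *Armcx5* probeset was numbered among probesets of chromosome 17, so its signal need not come from there. These shares and counts are a description and were not tested.

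The difference between the times was larger in BPN/3J than in BPH/2J for 128 of the 150 probesets. Following the measure of the study, *d* is the difference between BPH/2J and BPN/3J at ‘peak’ BP minus that at ‘trough’ BP, and *aFD* is the fold for which it stands, with its sign. The median *d* was -0.18 (-0.01 over all probesets with 1 symbol), and it ran from -0.27 without BPN/3J ‘trough’ mouse 4 to -0.14 without BPN/3J ‘trough’ mouse 1. An *aFD* of -1.5 or below was found for 4 probesets, *C130030K03Rik* (-1.60), *Slco1a4* (-1.60), *Rrs1* (-1.54) and *Ptchd1* (-1.52), followed by *Mgst1*, a microsomal glutathione transferase, with -1.46. No probeset reached 1.5 in the other direction. The highest were *Npn2* with 1.32, *Ifit3b* with 1.29, a *Trdn* probeset with 1.21, *Sem1*, a proteasome subunit, with 1.16, and *Nme3*, a nucleoside diphosphate kinase, with 1.11. Since the rule used both contrasts behind *d*, these values are a description, and over all probesets limma called 0 for *d* (smallest adjusted p = 0.177, 2890 with an unadjusted p under 0.05).

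**Figure D4:**
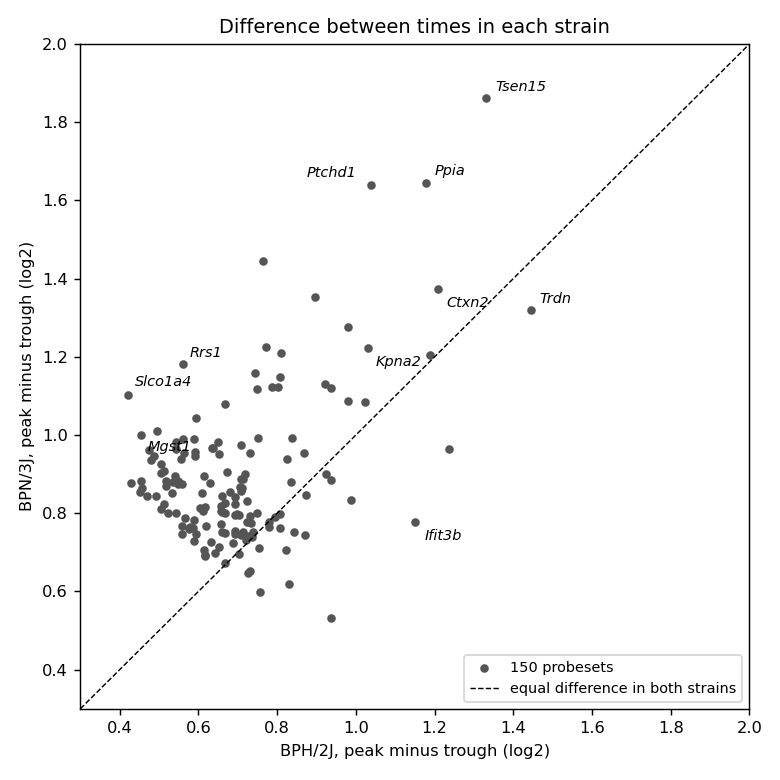
Level at ‘peak’ minus level at ‘trough’ BP in BPH/2J mice (horizontal axis, log2) against that in BPN/3J mice (vertical axis, log2) for the 150 probesets (points), with the line of equal differences. Of the points, 128 lie above the line, and *Ifit3b* and *Trdn* are among the 22 below it.

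Levels were then compared between the strains at each time. The rule did not use this contrast, but it used the same ‘peak’ and ‘trough’ values. At ‘peak’ BP 3 probesets were higher and 3 lower in BPH/2J than in BPN/3J mice by limma at an adjusted p under 0.05, where 0.616% and 0.713% of all probesets were called. At ‘trough’ BP 3 were higher and 3 lower, where 0.342% and 0.187% of all probesets were called. Unadjusted, 11 were higher and 8 lower at ‘peak’ BP, and 23 higher and 4 lower at ‘trough’ BP, with p under 0.05. The median strain difference was 0.01 at ‘peak’ BP with 80 of 150 probesets positive, and 0.21 at ‘trough’ BP with 140 positive. Since the strain difference at ‘trough’ BP is that at ‘peak’ BP minus *d*, this shift restates the negative *d* of the set and is a description too. Over all probesets with 1 symbol these medians were 0.01 and 0.01, with 52.5% and 52.9% positive. Leaving out 1 ‘trough’ mouse at a time, the median at ‘trough’ BP ran from 0.16 to 0.29 and the positive count from 127 to 143, lowest without BPN/3J mouse 1 and highest without BPN/3J mouse 4.

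*Slco1a4*, a transporter of organic anions that is best known from the blood-brain barrier, had the largest positive strain difference of the set at ‘trough’ BP. It measured 8.68, 8.93 and 8.94 in BPH/2J ‘trough’ mice, against 7.28, 7.50 and 7.85 in BPN/3J ‘trough’ mice. At ‘peak’ BP it measured 8.97, 9.39 and 9.43 in BPH/2J mice, against 8.34, 8.70 and 8.85 in BPN/3J mice. The strains did not overlap at either time. The strain difference was 1.30 at ‘trough’ BP (SE 0.17, adjusted p = 0.000469, limma) and 0.62 at ‘peak’ BP (SE 0.12, adjusted p = 0.00931, limma). Markers of endothelial cells, 9 of which were measured, had median strain differences of 0.18 at ‘trough’ and -0.05 at ‘peak’ BP, and their part in this result was not tested.

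*Kpna2* at its first probeset was also higher in BPH/2J mice at both times. It measured 8.36, 8.57 and 8.72 in BPH/2J ‘peak’ mice, against 7.72, 8.09 and 8.20 in BPN/3J ‘peak’ mice. In ‘trough’ mice it measured 7.28, 7.54 and 7.78 in BPH/2J, against 6.71, 6.63 and 7.05 in BPN/3J. The strain difference was 0.55 at ‘peak’ (SE 0.11, adjusted p = 0.0131, limma) and 0.74 at ‘trough’ BP (SE 0.16, adjusted p = 0.0399, limma). Its second probeset gave 0.40 at ‘peak’ BP (adjusted p = 0.0153, limma) and 0.50 at ‘trough’ BP (adjusted p = 0.0711, limma). The probeset at the gene's own position on chromosome 11 had 0.38 and 0.16 and passed at neither time (adjusted p = 0.378 and 0.818, limma), so the origin of the difference is uncertain. *Rrs1* measured 7.65, 7.95 and 7.82 in BPH/2J ‘trough’ mice, against 7.32, 7.17 and 7.17 in BPN/3J ‘trough’ mice (difference 0.59, SE 0.12, adjusted p = 0.0270, limma). Its difference at ‘peak’ BP was -0.03, so the one at ‘trough’ BP largely restates its *d* of -0.62. The rule used both contrasts behind *d*, and no probeset was called for *d*, so a strain difference particular to 1 time is not shown.

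*Snrpe* was lower in BPH/2J mice at both times, by -0.81 at ‘peak’ (SE 0.10, adjusted p = 9.54e-05, limma) and -0.65 at ‘trough’ BP (SE 0.14, adjusted p = 0.0429, limma), with the levels given above. Of the genes without a known role here, *Gm14403* measured 7.13, 7.65 and 8.07 in BPH/2J ‘peak’ mice, against 8.91, 9.56 and 10.22 in BPN/3J ‘peak’ mice. At ‘trough’ BP it measured 6.74, 6.76 and 6.82 in BPH/2J, against 8.22, 7.75 and 8.77 in BPN/3J mice. Each BPN/3J ‘trough’ mouse stood above the median BPH/2J ‘peak’ mouse. The differences were -1.93 (adjusted p = 4.54e-05, limma) at ‘peak’ and -1.47 (adjusted p = 0.0397, limma) at ‘trough’ BP. *1810037I17Rik* was lower by -1.48 at ‘peak’ (adjusted p = 4.37e-05, limma) and -1.25 at ‘trough’ BP (adjusted p = 0.0195, limma).

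Calls at ‘trough’ BP rest on 3 mice per strain and were less stable than those at ‘peak’ BP. Without any 1 array the counts at ‘peak’ BP stayed at 3 or 4 in either direction. At ‘trough’ BP the higher calls ran from 1 to 5 and the lower ones from 0 to 3, and *Slco1a4* alone was called in all of these fits. Higher calls numbered 1 without BPH/2J ‘trough’ mouse 2 or 3 or without BPN/3J ‘trough’ mouse 1 or 3, and 5 without BPN/3J ‘peak’ mouse 11. Lower calls numbered 0 without BPH/2J ‘trough’ mouse 1, 2 or 3 or without BPN/3J ‘trough’ mouse 4, and 1 without BPN/3J ‘trough’ mouse 1 or 3 or without BPH/2J ‘peak’ mouse 6 or 8.

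**Figure D5:**
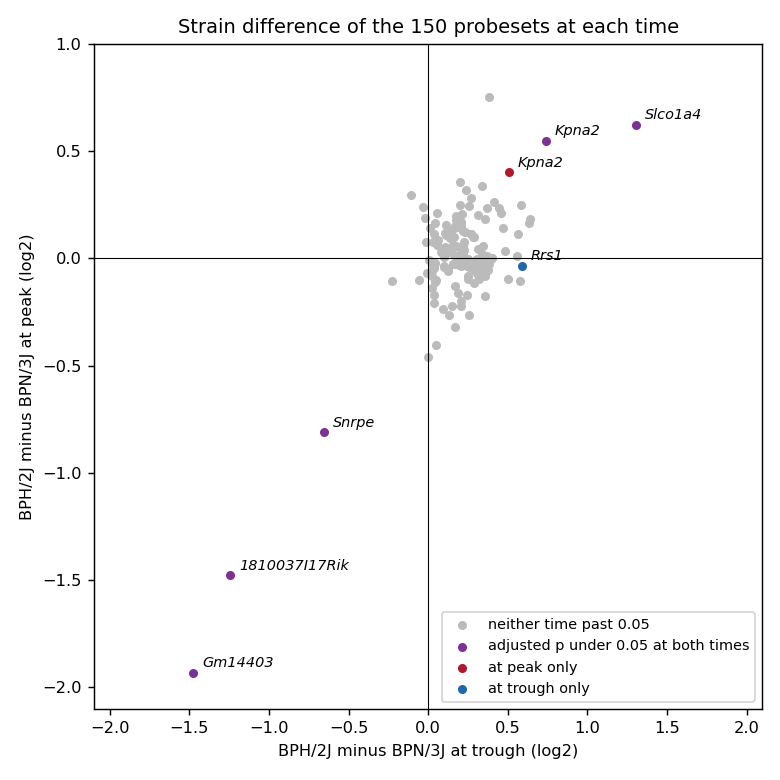
Difference between BPH/2J and BPN/3J mice at ‘trough’ BP (horizontal axis, log2) and at ‘peak’ BP (vertical axis, log2) for the 150 probesets (points). Coloured points passed limma at an adjusted p under 0.05 at both times or at 1 of them, and the grey cloud is centred near 0 on the vertical axis and near 0.21 on the horizontal one.

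Sequences near the gene start were read for the members to see which known regulatory motifs they hold. RefSeq promoters (build GRCm38.p6, 250 bases before to 50 after the start) matched 107 of the 141 genes. Each gene was read at its first listed start, which need not be the outermost one. The E-box CACGTG, bound by CLOCK and BMAL1 among others, was in 10 of the 107 (9.35%), against 7.24% of all 27025 promoters. The cAMP response element TGACGTCA was in 3 (2.80%, against 1.88%), the ROR element core TAGGTCA in 2 (1.87%, against 2.64%) and the D-box TTATGCAA in 0 (against 0.792%). The glucocorticoid half-site TGTTCT was in 10 (9.35%, against 19.0%), the heat shock pair GAANNTTC in 8 (7.48%, against 7.95%), CCAAT in 42 (39.3%, against 37.9%) and TATAAA in 10 (9.35%, against 14.2%). All were searched on both strands, and a longer motif may overlap a shorter one. The median GC content was 57.7%, against 52.7%, with 17 against 7 CG dinucleotides per promoter.

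Shown as examples are 3 promoters of members with 1 of these motifs and with a probeset at the gene's own locus, with the motif in capitals. *Tbc1d7* has the E-box 53 bases before its start (chr13:43171452-43171751, minus strand), counted to the first base of the motif. *Tctex1d2*, which encodes a dynein light chain, has it 8 bases after its start (chr16:32419452-32419751, plus strand). *Gemin6* has the cAMP response element 18 bases before a listed start (chr17:80224201-80224500, plus strand). That start lies inside the span of the gene (80207504-80228497) and not at its outer end. Their differences at the probesets of these loci were 0.77, 0.87 and 0.87 in BPH/2J and 1.23, 0.95 and 0.74 in BPN/3J mice. A match of letters does not show that a factor binds there.
Tbc1d7: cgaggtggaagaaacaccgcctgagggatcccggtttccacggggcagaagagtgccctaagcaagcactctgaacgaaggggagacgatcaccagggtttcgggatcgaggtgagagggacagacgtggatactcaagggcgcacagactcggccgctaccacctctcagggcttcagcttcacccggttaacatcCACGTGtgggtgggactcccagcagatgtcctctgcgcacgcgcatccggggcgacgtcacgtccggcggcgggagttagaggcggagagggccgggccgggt
Tctex1d2: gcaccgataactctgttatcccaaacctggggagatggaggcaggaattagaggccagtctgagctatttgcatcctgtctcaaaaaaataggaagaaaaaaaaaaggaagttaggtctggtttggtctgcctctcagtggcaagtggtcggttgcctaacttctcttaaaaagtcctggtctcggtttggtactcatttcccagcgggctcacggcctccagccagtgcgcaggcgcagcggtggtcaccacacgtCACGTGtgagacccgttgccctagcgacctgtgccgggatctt
Gemin6: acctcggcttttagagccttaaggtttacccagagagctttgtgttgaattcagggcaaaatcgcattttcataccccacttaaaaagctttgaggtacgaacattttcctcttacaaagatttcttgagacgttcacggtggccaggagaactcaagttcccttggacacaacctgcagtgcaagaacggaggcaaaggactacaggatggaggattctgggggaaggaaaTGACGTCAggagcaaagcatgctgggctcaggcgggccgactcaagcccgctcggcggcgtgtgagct

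Members of the core clock loop were not in the set. Of 15 measured clock genes 0 passed in BPH/2J mice and 2 were higher in BPN/3J mice at ‘peak’ BP, *Fbxl21* by 0.61 (adjusted p = 0.00149, limma) and *Nr1d2* by 0.26 (adjusted p = 0.0172, limma), and 1 of the 15, *Nr1d2*, met the rule of no overlap. These counts are near the shares over all probesets, 12.9% higher in BPN/3J mice and 5.82% meeting the rule. The labelled tissue was checked with 11 markers of hypothalamic identity, whose mean ran from 6.67 to 6.98 and 6.84 to 6.86 in BPH/2J ‘peak’ and ‘trough’ mice and from 6.49 to 6.94 and 6.91 to 7.02 in BPN/3J ‘peak’ and ‘trough’ mice. None of the 11 passed in BPH/2J (median difference -0.08), and 3 were lower at ‘peak’ BP in BPN/3J mice (median -0.30). For these and the following marker counts, 4.25% of all probesets were higher and 4.39% lower in BPH/2J, and 12.9% higher and 12.4% lower in BPN/3J mice, so that 1 call in a list of 8 to 11 genes is near the share over all probesets in BPN/3J. Neuron markers had 1 of 8 higher in BPH/2J and 1 higher and 2 lower in BPN/3J mice, and astrocyte markers had 1 of 10 lower in BPH/2J and 0 in BPN/3J. Mural cell markers (8 measured) had median differences of -0.58 in BPH/2J and -0.24 in BPN/3J, with 2 lower in BPH/2J and 3 lower and 1 higher in BPN/3J mice. Meningeal fibroblast markers (8 measured) had -0.65 and -0.27, with 2 lower in either strain. Endothelial markers (9 measured) had -0.37 and -0.10, with 2 lower in BPH/2J and 1 lower in BPN/3J mice. A mixed list for the pituitary and pars tuberalis, with deiodinase genes among others, had 11 genes measured. Its mean was 6.13 to 6.35 in BPH/2J ‘peak’ and 6.20 to 6.47 in BPH/2J ‘trough’ mice, and 6.11 to 6.70 in BPN/3J ‘peak’ and 6.42 to 7.80 in BPN/3J ‘trough’ mice. None of these 11 genes passed in BPH/2J (median close to 0), and 5 were lower at ‘peak’ BP in BPN/3J mice (median -0.49). The part of these cell types in the levels of the set was not tested.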

How the data were processed

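The deposited log2 signals had been made by the authors with RMA (versions not given in the sources used here). They cover 34760 probesets in 18 arrays, from 1.66 to 14.4, with 0 missing. These values were used without further normalization. Precision is limited by the number of arrays. Nothing in the labels says more of replicates than 1 mouse per array, so p-values measure the spread between these mice. Genes were named by the platform annotation, with 21640 probesets carrying 1 symbol, 1321 several and 11799 none, and chromosomes and promoters came from RefSeq tables of GRCm38.p6. Groups came from the sample titles.

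For the tests 1 linear model of the 4 groups was fitted with limma 3.58.1 (R 4.3.3, 14 residual and 2.94 prior degrees of freedom). Adjusted p-values are Benjamini-Hochberg values over the whole array, with a threshold of 0.05. The fit and the rule of no overlap were tested on simulated data. The members and the 30 gene lists were chosen with earlier results of these data known. A gene of a list is taken at its brightest probeset. Genes were named by rule: the 25 with the largest mean difference other than predicted genes, genes with 2 or more members, members in a list, those that passed between the strains, the 5 highest and 5 lowest *d* and the border of the set. Genes named in functional groups were chosen after their values were seen. Alternatives were quantile normalization, median centring, removal of dim probesets (below the 40th percentile of signal) or of each array in turn, only the ‘peak’ mice with the lower or with the higher numbers, a trend and robust prior, array weights, fits of 2 groups, a block for the mouse number and other forms of the rule. Numbers shared by mice of both strains do not pair them, since residual correlations of same-numbered mice ran from -0.296 to 0.194. Plots were made with matplotlib 3.10.9 (Python 3.11.15).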

Additional observations from a re-analysis of the deposited data

Results flagged for a closer look

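In a group of 6 mice, 1 value lay far from the other 5 (by Dixon's test at the 95% level) in 7 of 110 such groups, where 1 in 20, or 5.5, would be flagged by chance. BPN/3J ‘peak’ mouse 11 was low in 3 of them. It had 7.81 for *Ctxn2*, where the others ran from 8.57 to 8.83, 7.38 for *Trim13*, where the others ran from 8.13 to 8.45, and 8.70 for *Lxn*, a carboxypeptidase inhibitor, where the others ran from 9.08 to 9.23. BPN/3J ‘peak’ mouse 7 had 10.5 for *Rbm3*, where the other 5 had at least 10.9. BPH/2J ‘peak’ mouse 5 had 7.32 for *Gemin6* at the probeset numbered on chromosome 6, against 6.71 to 6.85. BPH/2J ‘peak’ mouse 8 had 7.48 for *Cbx3* at the probeset numbered on chromosome 1, against 7.94 to 8.17. BPH/2J ‘peak’ mouse 7 had 9.53 for *Asnsd1*, against 9.18 to 9.29. The causes were not tested.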

How the results depend on the processing

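The 1061 probesets that met the rule became 2974 with the lower-numbered ‘peak’ mice only and 1828 with the higher-numbered ones only, which leave 4 and 2 ‘peak’ mice per strain, and 172 with a gap of at least 0.20 in each strain. Of the 150 members, 86 stayed among the first 150 with the lower-numbered mice, 61 with the higher-numbered mice and 76 with the wider gap, against 122 with quantile normalization, 142 with median centring, 130 with limma's adjusted p in place of the rule and 124 with 1 probeset per gene. The median difference in BPH/2J mice was 0.51 with the higher-numbered mice only. Of the counts at ‘peak’ BP, the 3 higher members became 1 with the lower-numbered and 0 with the higher-numbered mice, and the lower members stayed at 3. At ‘trough’ BP, the 3 higher members became 6 with the lower-numbered mice, 1 with the higher-numbered mice and 7 with dim probesets left out. They became 1 with the fit of 2 groups and 67 with array weights. The fit with array weights called 10.6% of all probesets higher and 12.7% lower at ‘trough’ BP. The 3 lower members became 0 with median centring and 1 with the fit of 2 groups. Without 1 array at a time, higher calls ran from 1 to 5 and lower calls from 0 to 3 at ‘trough’ BP, and ‘peak’ counts from 3 to 4. In a block for the mouse number, which pairs no mice and could use 12 arrays, the counts were 0 in both directions at both times. No median difference between the times changed sign, nor did a called strain difference in the settings where it was followed. The median strain difference at ‘peak’ BP, close to 0, did change sign. It ran from -0.03 without BPH/2J ‘peak’ mouse 5 to 0.06 without BPN/3J ‘peak’ mouse 6. The mean differences of the named genes kept their sign in all settings run, and the strain differences of *Snrpe*, *Gm14403*, *1810037I17Rik*, *Kpna2* and *Rrs1* each lost their call at ‘trough’ BP in several settings. At ‘peak’ BP higher calls were lost with the lower-numbered or higher-numbered mice, while all 3 lower calls were kept in both settings. With the block all calls at ‘peak’ BP were lost. Members numbered on their own chromosome (125) had median differences of 0.67 and 0.84, and members that are the brightest probeset of their gene (124) had 0.67 and 0.84, both chosen after seeing the data. The causes were not tested.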

Other observations

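A list of genes of cholesterol synthesis and its control holds none of the 150 probesets. Of its 22 measured genes, each at its brightest probeset, 7 rose and 2 fell in BPH/2J mice, and 13 rose and 2 fell in BPN/3J mice (limma, adjusted p under 0.05, where 4.25% and 4.39% of all probesets were higher and lower in BPH/2J and 12.9% and 12.4% in BPN/3J). Their median differences were 0.30 and 0.36. The rule of no overlap was met by 11 of the 22, against 5.82% of all probesets with 1 symbol. *Stard4*, a sterol carrier, rose by 0.51 in BPH/2J (adjusted p = 0.00152, limma) and 0.62 in BPN/3J (adjusted p = 0.000220, limma). *Msmo1*, a sterol demethylase, rose by 0.44 and 0.51 (adjusted p = 0.00584 and 0.00143, limma), and *Idi1*, an isomerase early in the pathway, by 0.49 and 0.81 (adjusted p = 0.0302 and 0.000968, limma). Both genes for the transcription factors that drive the pathway went the other way. *Srebf2* had -0.36 in BPH/2J and -0.47 in BPN/3J (adjusted p = 0.0163 and 0.00205, limma), and *Srebf1* had -0.43 and -0.32 (adjusted p = 0.0248 and 0.0443, limma). The list was chosen with earlier results of these data known, and time of collection and age cannot be told apart here either.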
